A study of Mus musculus with 947 samples.

Results

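miR-199a and miR-214 are microRNAs (miRNAs), short RNAs that pair with messenger RNAs and lower their output, chiefly through the seed, bases 2 to 8 from the 5′ end. Each hairpin precursor can yield a 5p and a 3p arm. The 4 mature forms followed here are mmu-miR-199a-3p, mmu-miR-199a-5p, mmu-miR-214-3p and mmu-miR-214-5p (the mouse prefix is left off from here on). They were taken by name as the rows of both expression tables, among 1076 miRNAs measured in aging mice and 795 in parabiosis mice. miR-199a and miR-214 come in part from a single noncoding transcript, Dnm3os, and are known from fibroblasts, stellate cells, pericytes and other mesenchymal cells. miR-199a-5p and miR-214 are also known to rise in fibrosis of several organs, and miR-199a-3p is known for effects on heart muscle cell division.

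The aging cohort held 769 small RNA libraries of 16 tissues from C57BL/6JN mice sampled at 1 month, at 3 months and then in steps of 3 months up to an age of 27 months, 553 of them from males and the others from females of up to 21 months, with 1 to 6 libraries per tissue and age. The parabiosis cohort held 176 libraries of 6 tissues (gonadal and mesenteric fat, heart, kidney, limb muscle and liver) from surgically joined male mice, with 6 to 8 libraries per tissue and group. Isochronic young mice (IY, C57BL/6J, labelled 3 or 4.5 months) were joined to young mice, and isochronic aged mice (IA, labelled 19 months, C57BL/6J with 1 pair of C57BL/6JN) to aged mice. In heterochronic pairs a young mouse (HY, labelled 4 months) shared the circulation of an aged mouse (HA, labelled 19 months, C57BL/6J except 1 C57BL/6JN mouse). A summary of the animals in the study's own reporting form exchanges the names C57BL/6J and C57BL/6JN among these mice relative to the per-sample metadata used here, so which is right is uncertain. All HY mice were of another C57BL/6 strain than the other groups, so strain cannot be told apart from joining in HY against IY, nor from age in HA against HY.

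Levels are in rpmm, reads scaled to a fixed number of mapped reads, of bulk tissue. Fewer cells of a type and less RNA per cell cannot be told apart in such values, and no cell type was sorted. Depth was 2.29 to 167 M reads per library (M for 1e6, median 20.1 M) for aging and 9.20 to 47.6 M (median 20.1 M) for parabiosis. Marker miRNAs of the labelled tissues were highest in the tissue of that label, with the hepatocyte miR-122-5p at a median of 108491 rpmm in liver and 89.1 in GAT, the next tissue. By miRNA profile 9 aging libraries and 4 parabiosis libraries lay closest to another tissue than their label. None of those 13 was a liver, kidney, heart or limb muscle library.

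The mature sequences are shown because the 4 forms carry 4 different seeds and because miR-199a-3p shares every base with a product of another gene. They were taken from RefSeq (GRCm38.p6), 5′ to 3′, with the seed in capitals:
miR-199a-3p: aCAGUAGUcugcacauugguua
miR-199a-5p: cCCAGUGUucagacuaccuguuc
miR-214-3p: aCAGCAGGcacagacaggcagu
miR-214-5p: uGCCUGUCuacacuugcugugc
miR-199b-3p: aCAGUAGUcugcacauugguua

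miR-199b-3p, the product of another gene, has the same letters as miR-199a-3p throughout. Reads of the 2 cannot be separated, and their rows differed by a median of 0.0462% in aging mice. Values given for miR-199a-3p are therefore those of a sequence shared by 3 genes. Among the 1679 mature mouse miRNAs compared, the seed of miR-199a-3p was otherwise unshared, that of miR-214-3p was shared with miR-761, and that of miR-214-5p with none. miR-199b-5p, known to carry the same seed as miR-199a-5p, was not among those compared. The paper's alignment allowed a mismatch per read, and whether the rows of miR-199a-5p and miR-199b-5p share reads was not tested.

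In GRCm38.p6, Mir199a-2 (chr1:162217814-162217923, plus strand) and Mir214 (chr1:162223368-162223477, plus strand) lie 5444 bases apart in exonic sequence of Dnm3os (chr1:162217623-162225550), which runs opposite to an intron of the dynamin gene Dnm3. Mir199a-1 (chr9:21496495-21496564, minus strand) lies opposite to an intron of Dnm2. Mir199b (chr2:32318460-32318569, plus strand) lies opposite to an intron of Dnm1. miR-199a-5p is made from both Mir199a genes, whereas the miR-214 arms have 1 gene. The host transcript Dnm3os was not analysed here.

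All 4 members were highest in skin, bone, lung and subcutaneous fat (SCAT) and lowest in brain. miR-199a-3p was by far the most abundant arm, with medians of 8740.3 rpmm in skin (lowest 667, highest 18152, n = 47), 7864 in lung, 7118 in SCAT and 6801 in bone. It then fell through gonadal fat (GAT, 4032), mesenteric fat (MAT, 3776), kidney (3468), heart (3214), small intestine (2737), limb muscle (2514), spleen (1461), liver (1062), brown fat (BAT, 831), marrow (694) and pancreas (629) to 109 rpmm in brain (19.5 to 637, n = 51). The median in skin was 80.5 times that in brain.

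miR-199a-5p led in bone (median 504 rpmm, 56.9 to 2039, n = 48) and skin (445), followed by SCAT (362) and lung (257), and was lowest in brain (5.53). miR-214-3p led in skin (median 270.5 rpmm, 55.01 to 694, n = 47), SCAT (236), lung (230.0) and bone (207), and stood at 2.75 in brain. miR-214-5p was the rarest arm, with medians of 10.2 rpmm in bone and 8.56 in skin and 0.0852 in brain. It was the one member listed at 0 in any library, in 9 brain, 1 BAT and 1 pancreas library, where 3 reads would have been 0.0980 to 0.669 rpmm. Its median recovered read number was 2 in brain, 5 in pancreas and 8 in BAT, against 186 in bone, so its order among the lowest tissues rests on few reads (counting error only).

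Many neighbours in these orders did not differ beyond the spread between libraries. In permutation tests of mean log2 level (two-sided, 100000 shuffles, adjusted over 60 neighbouring pairs), 24 pairs differed, 6 of 15 for miR-199a-3p, 6 for miR-199a-5p, 4 for miR-214-3p and 8 for miR-214-5p. The step from pancreas down to brain passed for all 4 (2.73, 2.40, 2.66 and 0.60 on the log2 scale). For miR-214-5p both medians (0.571 rpmm in pancreas and 0.0852 in brain) lie below the 1 rpmm added before taking log2, which holds its step down. Skin, lung, SCAT and bone did not differ as neighbours for miR-199a-3p (adjusted p of at least 0.572 in the permutation tests), whereas bone exceeded GAT by 0.82 (adjusted p = 0.0001). Brain was lowest under every scaling tried. The head of the order did depend on it, since bone led for all 4 members when values were scaled to the summed miRNA reads or by median ratios.

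**Figure D1:**
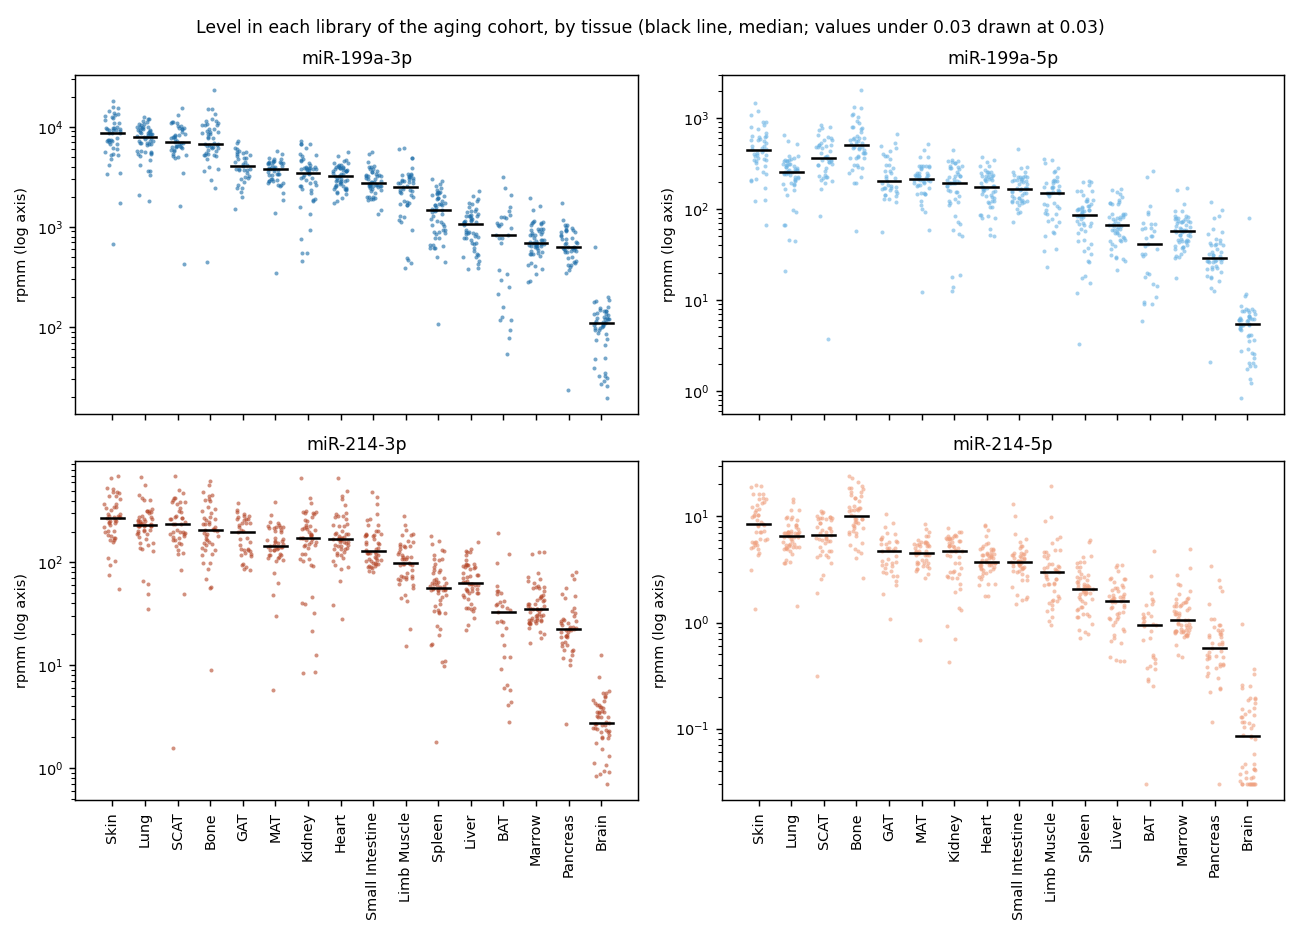
Level of each member in every aging cohort library (points, rpmm on a log axis) by tissue, with the tissue median marked. Skin, bone, lung and SCAT lie at the top for all 4 members and brain at the bottom, with tissue medians of miR-199a-3p from 8740.3 down to 109 rpmm.

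As a share of the summed miRNA reads, miR-199a-3p made up a median of 3.99% in bone, where it ranked 5 among all miRNAs by median, and 3.26% in skin, where it ranked 8. In brain it was 0.0188% and ranked 168. Across the 16 tissue means, the 4 miRNAs most like each member among 544 compared were the other 3 members and miR-199b-3p. Pearson's r on the log2 scale across tissues lay between 0.93 and 0.99 for each 2 members, where the points share libraries and depth. After miR-199b-3p, the nearest miRNAs outside the group were miR-27a-3p for miR-199a-3p (r = 0.856) and miR-214-3p (r = 0.817), and miR-199b-5p for miR-199a-5p (r = 0.808) and miR-214-5p (r = 0.826). miR-199b-5p, the 5p arm of Mir199b and thus from another locus, had its highest medians in lung (113.5 rpmm) and SCAT (110.9) and its lowest in brain (0.996).

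Within tissues the members varied together from library to library to a degree that differed between pairs and tissues. miR-199a-5p and miR-214-3p correlated with a median r of 0.746 over the 16 tissues (0.222 to 0.947; median Spearman's rho 0.691), and 15 of 16 passed for both measures in permutation tests adjusted over 160 correlations. Without the 2 libraries farthest from the median in each tissue, the median r was 0.748. The 2 arms of miR-199a correlated less (median r 0.647, from 0.0208 to 0.866; median rho 0.442), with 13 of 16 passing for r and 11 for rho, and their median r was 0.450 without the 2 farthest libraries. miR-199a-3p and miR-214-3p correlated least of the member pairs compared (median r 0.476, from -0.228 to 0.875; median rho 0.332), with 12 passing for r and 9 for rho. miR-199a-5p and miR-199b-5p, which lie on different chromosomes, had a median r of 0.780 (0.539 to 0.955), with all 16 passing. Reads counted in both rows could raise this correlation, and their part was not tested. The libraries of a tissue share depth and scaling, and their part in these correlations was tested only by rescaling to miRNA reads, where miR-199a-5p against miR-214-3p still passed in 15 tissues the arms of miR-199a in 9 for r and 6 for rho (median rho 0.148), and miR-199a-3p against miR-214-3p in 8 and 7 (median r 0.232, lowest -0.539).

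Ratios of 2 members within a library were taken as differences of log2(rpmm + 1). Scaling cancels in them for abundant members, but the pseudocount of 1 rpmm holds a ratio down where the rarer arm is near or below that level. miR-199a-3p exceeded miR-199a-5p by a median of 13.1-fold in marrow, 13.4-fold in bone and up to 30.6-fold in lung. miR-214-3p exceeded miR-214-5p by 17.9-fold in spleen, 20.4-fold in bone and up to 33.4-fold in heart. Lower ratios of the miR-214 arms, 3.54-fold in brain, 13.8-fold in pancreas, 16.2-fold in BAT and 17.8-fold in marrow, came from tissues where the median of miR-214-5p was 0.0852 to 1.05 rpmm, so the pseudocount lowers these ratios. miR-199a-5p and miR-214-3p were nearer to each other, from 1.13-fold in lung to 2.11-fold in bone. All 3 ratios differed between tissues (permutation of the Kruskal-Wallis statistic, adjusted p = 1e-05 each, the smallest that 100000 shuffles can give), and the statistic for the miR-214 arms went from 319 to 174 with a pseudocount of 0.1 rpmm. None of the 48 pairs of a ratio and a tissue correlated with age beyond 0.5 or passed by adjusted p (permutation test, smallest adjusted p 0.40), with the highest rho at 0.469 for the miR-214 arms in BAT.

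**Figure D2:**
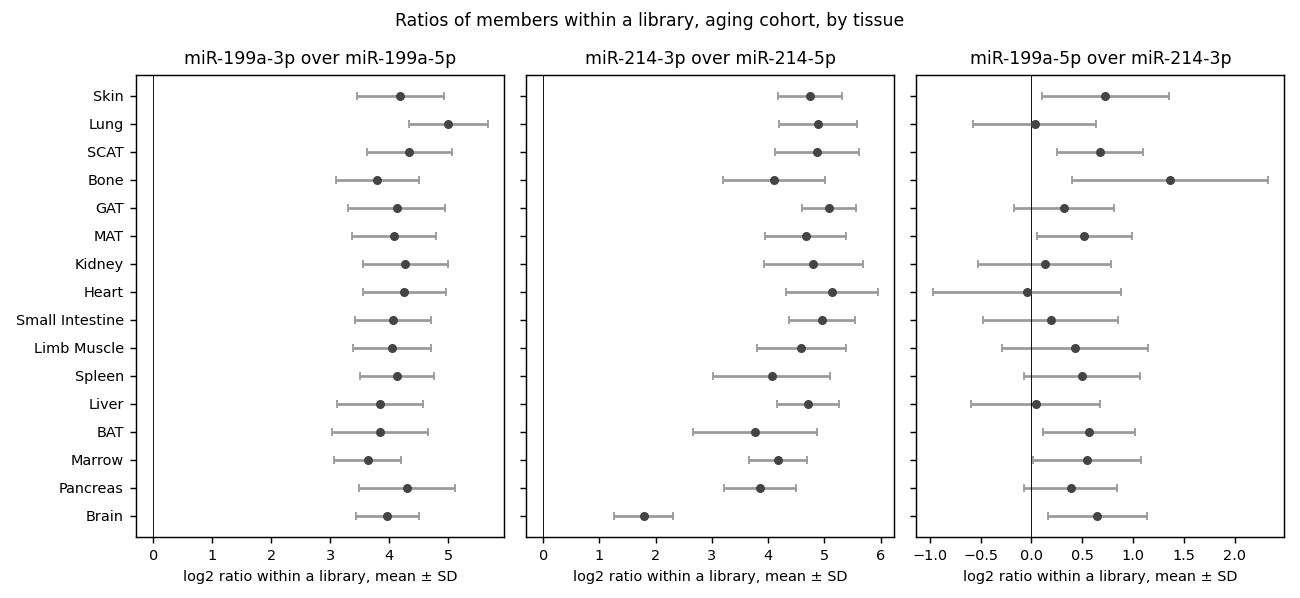
Log2 ratios within a library by tissue in the aging cohort, for the arms of miR-199a, the arms of miR-214 and miR-199a-5p over miR-214-3p. Lung stands highest for the miR-199a arms (median 30.6-fold) and bone highest for miR-199a-5p over miR-214-3p (2.11-fold).

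Did the members change with age within a tissue? The measure was Spearman's rho between level and age, called beyond 0.5 in either direction. Of 63 pairs of a member and a tissue, 3 were called, 2 positive and 1 negative, against 8.06% of all 8849 pairs of a miRNA and a tissue (3.75% positive, 4.31% negative). With the summed miRNA reads as the scale 6 were called, 1 positive and 5 negative, beside 252 positive and 582 negative of the 8849. With median ratios 1 was called, negative, beside 314 positive and 505 negative of the 8849. By permutation p adjusted within the tissue, 13 of 63 were below 0.05, against 18% of all pairs. The tissues that moved did so in opposite directions, down in limb muscle and up in liver and MAT.

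In limb muscle, miR-214-5p fell with age (rho = -0.645, Pearson's r = -0.594, adjusted permutation p = 9e-05, n = 47; r = -0.565 without the 2 farthest libraries). Its medians were 7.58 rpmm at 1 month, 4.46 at 3 months, 3.00 at 12 months, 1.58 at 21 months and 1.63 at 27 months, with 1 library of 9 months at 19.5. The other 3 members had rho of -0.453, -0.469 and -0.360, all with adjusted permutation p under the threshold of 0.05 but not called. Limb muscle as a whole leaned the same way, with 16.5% of its miRNAs below -0.5 and a median rho of -0.142. The rho of miR-214-5p lay between -0.559 and -0.675 under every alternative in which it was tested.

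In liver, miR-199a-3p rose with age (rho = 0.555, r = 0.515, adjusted permutation p = 0.000569, n = 52; r = 0.498 without the 2 farthest libraries). Its medians went from 729.7 rpmm at 1 month and 512 at 3 months to 1145 at 6 months, 1407 at 21 months and 1387 at 27 months. Liver miR-199a-5p had a rho of 0.385 that passed by adjusted p only. In liver 9.98% of miRNAs lay above 0.5 and the median rho was 0.163. With the summed miRNA reads as the scale the rho of miR-199a-3p was 0.493, and with median ratios 0.474, both under the threshold.

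In MAT, miR-214-5p rose with age (rho = 0.510, r = 0.499, adjusted permutation p = 0.0040, n = 47; r = 0.453 without the 2 farthest libraries). Its medians were 3.86 rpmm at 3 months, 4.52 at 15 months and 6.57 at 27 months. All 3 MAT libraries of 27 months (replicates 31, 33 and 53) lay closest to GAT or SCAT by miRNA profile, as did 1 of 9 months. In MAT 6.43% of miRNAs lay above 0.5. The call was lost under both other scalings (rho = 0.356 and 0.387) and without those MAT libraries (0.461), while in males alone rho was 0.692. Markers of other cells moved with age in MAT. The summed white blood cell list (4 miRNAs) lay at 791 to 1616 rpmm at 3 months and 10800 to 16998 at 27 months, and the smooth muscle list (2 miRNAs) at 181455 to 383994 and 34008 to 49578, and their part in the result was not tested.

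**Figure D3:**
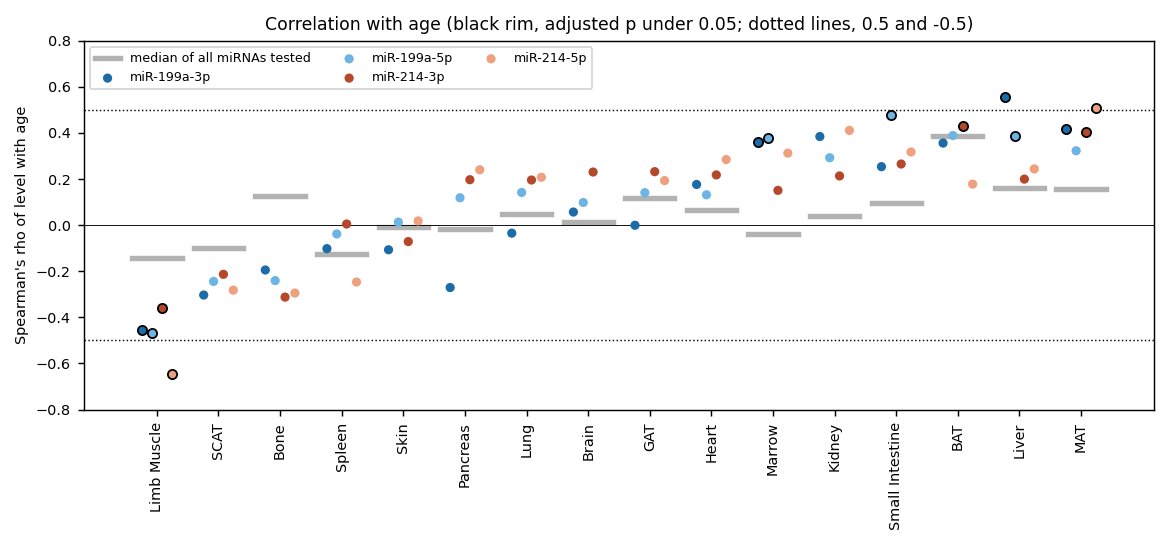
Spearman's rho of each member with age in each tissue of the aging cohort, with the call limits of 0.5 and -0.5 drawn. Limb muscle lies on the negative side for all 4 members, and 3 of 63 values pass the limits.

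The differences between tissues were tested themselves. The slope of log2 level on age differed between the 16 tissues for all 4 members (permutation test, n = 769, adjusted p = 0.0027 for both miR-199a arms, 0.0225 for miR-214-3p and 4e-05 for miR-214-5p). Per 12 months miR-199a-5p moved by -0.57 in limb muscle, 0.39 in liver, 0.52 in kidney and 0.89 in BAT. The slope of miR-214-5p was -0.61 in limb muscle, 0.15 in liver, 0.31 in MAT and 0.34 in kidney. The slope test was run for the 4 members only, so no share over all miRNAs stands beside it. Over all miRNAs the median rho with age also differed between tissues. It was -0.142 in limb muscle, 0.0383 in kidney, 0.156 in MAT, 0.163 in liver and 0.385 in BAT. In males alone only miR-199a-5p and miR-214-5p passed, with adjusted p of 0.0843 for miR-199a-3p and 0.168 for miR-214-3p in the same permutation test. Without the 1-month libraries miR-214-3p did not pass (permutation test, adjusted p = 0.063), and the others did.

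Juvenile and adult mice were compared at 1 and 3 months. Of 55 tests of a member in a tissue, 1 was called, lower at 1 month, against 1.76% of 7736 tests over all miRNAs, 0.892% lower (limma, Benjamini-Hochberg within the tissue). In MAT miR-199a-5p read 12.2, 182 and 228 rpmm at 1 month and 192, 205.9, 213.7, 233 and 448 at 3 months. The lowest 1-month and the highest 3-month library lie far from the rest, and the groups overlap. The difference was -1.58 on the log2 scale (SE 0.52, limma adjusted p = 0.045), and leaving out any of 5 single libraries (1-month replicate 21 and 3-month replicates 01, 05, 12 and 17) ended the call.

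Each later age was set against the same 3-month libraries, so these contrasts are not independent of each other. Over ages from 6 to 27 months 14 of 448 tests of a member were called, 10 higher and 4 lower, against 2.76% of 63126 over all miRNAs, 1.27% higher and 1.5% lower (limma), with 15 higher and 8 lower under miRNA-read scaling and 10 and 1 under median ratios. At 21 months, the age that the study sets beside parabiosis, 5 of 55 were called, 3 higher and 2 lower, against 3.86% of 7779, 2.24% higher and 1.62% lower. Under miRNA-read scaling 8 were called, 4 in each direction, and under median ratios none (0 by limma, with 4 by edgeR with its usual scaling factors). The shares over all miRNAs given here belong to the main scaling. None stands beside the counts under other scalings or by edgeR, so those show dependence on processing only.

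In liver, miR-199a-3p read 377 to 740.2 rpmm at 3 months (median 512, n = 6) and 538, 1151, 1407, 1446 and 2263 at 21 months. Of the 21-month livers 4 of 5 lay above every 3-month liver. The difference was 1.23 (SE 0.33, 2.35-fold, limma adjusted p = 0.0087), where the median liver miRNA moved by 0.38 and 8.38% of liver miRNAs were called higher. It was also called at 6 months (1.06), 18 months (1.22) and 27 months (1.44, limma adjusted p = 0.0016), and it lay above 3 months at all 8 later ages. The 6-month call was lost under both other scalings and by edgeR with TMM factors. Its difference there fell to 0.46 and its adjusted p rose to 0.48 (limma or edgeR). It also ended without 6-month replicate 29 or 3-month replicate 14 or 35. The 18-month call was lost in males alone (limma adjusted p = 0.053). That of 27 months was lost with median ratios and by edgeR with TMM factors (down to 0.70, limma or edgeR adjusted p up to 0.14).

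Liver miR-199a-5p rose at 6 months (1.06) and 27 months (1.36, limma adjusted p = 0.0085), and miR-214-5p at 24 months (0.96, limma adjusted p = 0.017). These 3 calls were lost under both other scalings and by edgeR with TMM factors. That of 6 months was also lost without the filter and with set or plate as a covariate. Single libraries ended them too, 6 for miR-199a-5p at 6 months (6-month replicates 29, 49 and 56, 3-month replicates 14, 28 and 35), 1 at 27 months (27-month replicate 18) and 2 for miR-214-5p (24-month replicates 07 and 12). miR-214-3p was called at no age, with differences from 0.13 to 1.04. The relative miR-199b-5p also rose in liver at 27 months (1.33, limma adjusted p = 0.0015). Other values moved with age in liver. The white blood cell list went from 369 to 1055 rpmm at 3 months to 781 to 1995 at 21 months and 1055 to 2291 at 27 months, and the median summed miRNA signal from 253840 rpmm to 354215 and 387587. With the summed miRNA reads as the scale the 21-month difference of miR-199a-3p was 0.75 (limma adjusted p = 0.051), and with median ratios 0.74 (0.089). Without 21-month replicate 10 it was 1.02 (0.083).

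In limb muscle, miR-214-5p read 2.56 to 6.41 rpmm at 3 months (median 4.46, n = 6) and 1.04, 1.29, 1.58, 1.76 and 2.33 at 21 months. The groups do not overlap. The difference was -1.04 (SE 0.33, limma adjusted p = 0.018). miR-199a-5p read 155 to 343 rpmm at 3 months (median 204.5) and 50.6, 73.4, 98.0, 111 and 151.9 at 21 months, again without overlap, a difference of -1.25 (SE 0.45, limma adjusted p = 0.046). Neither passed without 21-month replicate 28 (-0.96, limma adjusted p = 0.059, and -1.04, 0.17) or without 3-month replicate 15 (-0.95, 0.052, and -1.12, 0.11). The miR-199a-5p call was kept under 5 of 13 alternatives, was lost among others with set or plate as a covariate, by edgeR with or without TMM factors and in males alone (adjusted p up to 0.45), and ended without any 1 of 15 libraries. The miR-214-5p call was kept under 8 of 12. At 15 months miR-199a-5p fell by 1.81 (limma adjusted p = 0.0020), a call lost with plate as a covariate (limma adjusted p = 0.070). miR-214-5p gave -0.87 at 15 months (limma adjusted p = 0.0495), which was kept under 3 of 12 alternatives and ended without any 1 of 39 of the 47 libraries. miR-199a-3p and miR-214-3p stood lower as well without passing (-1.17 and -1.05), and all 4 members lay below 3 months at all 7 later ages tested. The median limb muscle miRNA moved by -0.42 at 21 months and 17.4% of its miRNAs were called lower. White blood cell markers also stood lower, at 530.1 to 1296 rpmm at 3 months and 207 to 574 at 21 months, and their part was not tested.

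In small intestine, miR-199a-5p read 72.3, 112, 117, 139 and 158 rpmm at 3 months and 166 to 459 at 21 months (median 207, n = 6). All 21-month values exceeded all 3-month values. The difference was 1.02 (SE 0.26, 2.02-fold, limma adjusted p = 0.0097), where 12.5% of small intestine miRNAs were called higher. That call was lost with median ratios and in males alone (limma adjusted p up to 0.13). miR-214-5p rose by 0.79 (limma adjusted p = 0.036) with overlapping groups, a call that ended without any of 5 libraries (3-month 07, 24 or 29, 21-month 49 or 56), and miR-199b-5p by 1.05 (0.030). The miR-214-5p call was kept under 8 of 12 alternatives. It was lost without the filter, with median ratios, by edgeR with TMM factors and in males alone. Smooth muscle markers in small intestine lay at 31852 to 54387 rpmm at 3 months and 50769 to 85347 at 21 months, and their part was not tested.

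Kidney gave large differences that did not pass at 21 months. miR-199a-5p read 12.7, 18.9, 68.4, 152.3 and 256 rpmm at 3 months and 121, 180, 296, 318 and 337 at 21 months. The young kidneys spanned a wide range and overlapped the aged ones. The 4 members differed by 1.55, 1.98, 2.14 and 1.27 (limma adjusted p from 0.097 to 0.112), where the median kidney miRNA moved by 0.80 and 0.364% were called higher. Without 3-month replicate 23 all 4 were called, which brings the count at 21 months to 9. At 27 months miR-214-5p was called (1.28, limma adjusted p = 0.045), a call kept under 6 of 12 alternatives, lost under both other scalings and both edgeR fits, and ended without any 1 of 18 libraries. The summed miRNA signal spanned 57385 to 437938 rpmm in the 3-month kidneys and 357202 to 510275 in the 21-month kidneys.

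**Figure D4:**
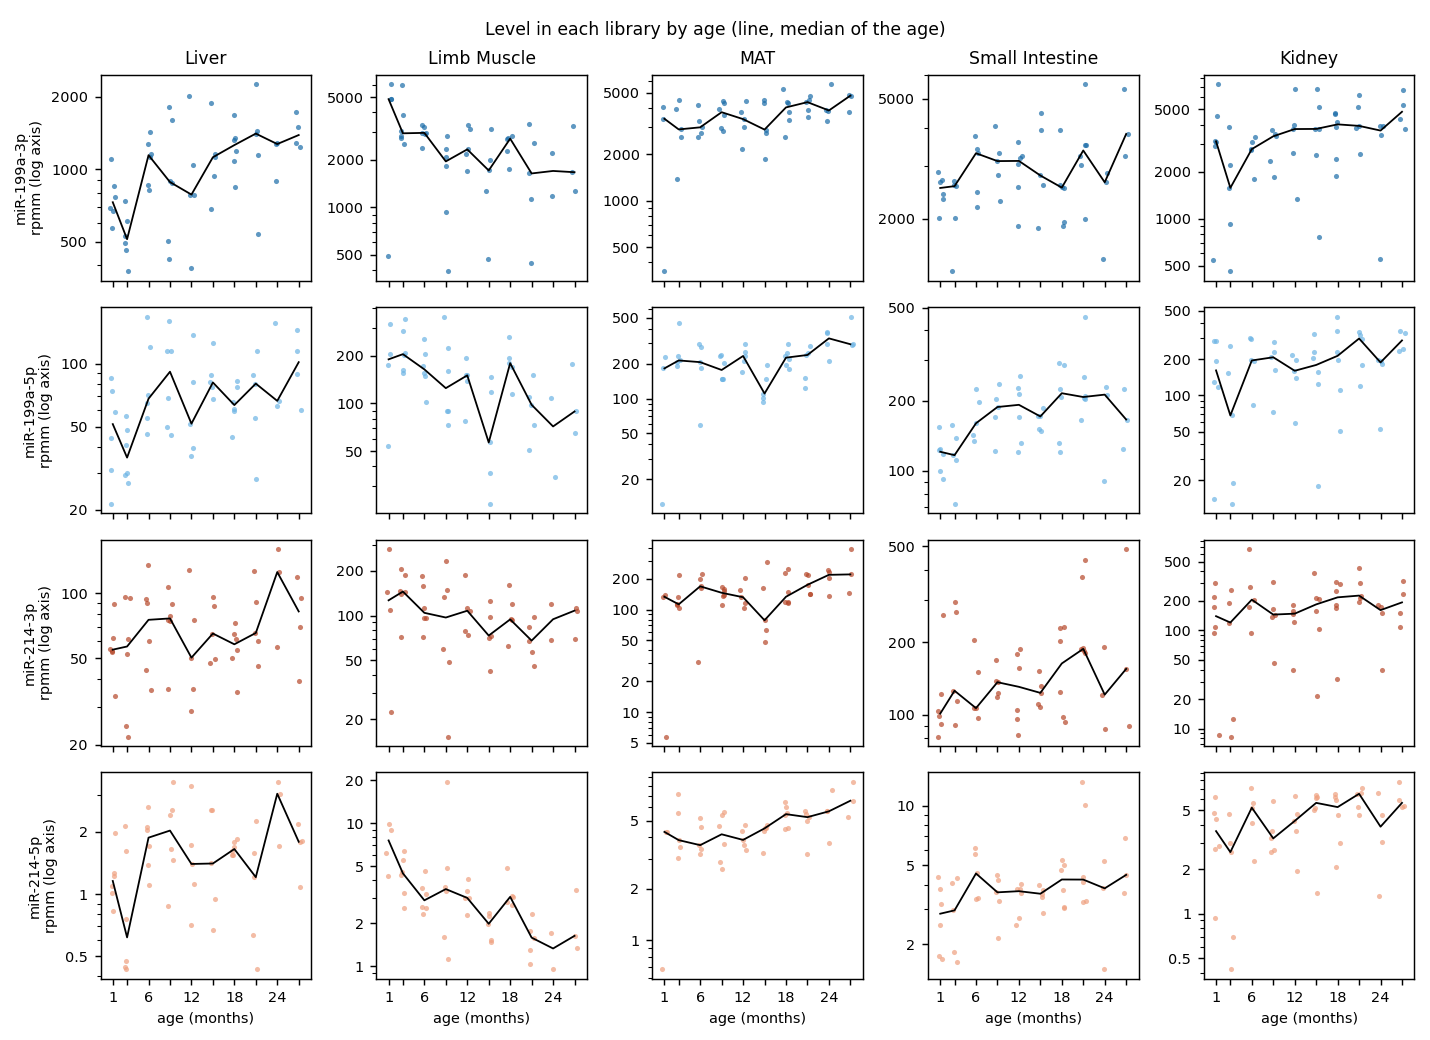
Level of the 4 members (rows, rpmm on a log axis) in each library of liver, limb muscle, MAT, small intestine and kidney (columns) by age in months, with a line through the medians. Limb muscle medians of miR-214-5p drop from 7.58 to 1.63 rpmm between 1 and 27 months, and liver medians of miR-199a-3p rise from 729.7 to 1387.

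Male and female mice were compared at ages up to 21 months with age in the fit. Of 63 tests of a member 4 were called, all lower in females, against 4.45% of 8838 over all miRNAs, 2.57% lower (limma). Under miRNA-read scaling 4 were lower and 2 higher in females, and under median ratios 4 and 3, without a share over all miRNAs beside them. Of the 4 calls in the main fit, 3 were in skin, where 16.3% of all miRNAs were called lower. There miR-199a-5p had a median of 338 rpmm in 13 females (126.3 to 456) and 492 in 28 males (66.9 to 1199), and the highest female lay below the male median. The difference was -0.79 (SE 0.25, limma adjusted p = 0.015). Skin miR-199a-3p differed by -0.64 (0.031) and miR-214-5p by -0.63 (0.012), with medians of 6684 against 9276 and 5.79 against 10.1 rpmm. miR-214-3p did not pass (-0.18, limma adjusted p = 0.63). In marrow miR-199a-3p was lower in females (-0.50, limma adjusted p = 0.035), a call lost with plate as a covariate, without the filter and by edgeR without TMM factors (adjusted p up to 0.106).

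The parabiosis cohort asks whether an old or a young circulation moves these miRNAs. Aged and young mice were compared first. Between the partners of heterochronic pairs (HA against HY), 4 of 24 tests of a member were called, all higher in aged mice and all in kidney, against 9.81% of 3211 over all miRNAs, 5.51% higher, and 13.8% of kidney miRNAs called higher (limma). Called there were all 4 members.

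Kidney miR-199a-3p read 4559 to 8117 rpmm in HA mice (median 6289, n = 6) and 2826 to 4014 in HY mice (median 3470.0, n = 7). The groups do not overlap. The difference was 0.86 (SE 0.19, 1.82-fold, limma adjusted p = 0.0014). miR-199a-5p read 344 to 849 (median 523) and 175 to 521 rpmm (median 215), a difference of 1.02 (SE 0.26, 2.03-fold, limma adjusted p = 0.0050). Some HY mice lay within the range of HA mice.

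Kidney miR-214-3p showed the largest of the 4 differences. It read 213 to 773 rpmm in HA mice (median 423) and 111 to 317 in HY mice (median 123.5), or 1.47 (SE 0.27, 2.78-fold, limma adjusted p = 0.00027). miR-214-5p read 7.23 to 19.6 and 3.56 to 9.00 rpmm (medians 13.2 and 4.50), or 1.15 (SE 0.24, 2.22-fold, limma adjusted p = 0.0010). Between these groups the heart members gave 0.06, -0.31, 0.46 and 0.00 in the order above (limma adjusted p from 0.14 to 1.00). The 4 kidney calls stood under every alternative processing in which the member was tested and without any single kidney library. HA and HY mice also differed in strain, which none of these alternatives separates from age. The median kidney miRNA moved by -0.03.

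White blood cell markers differed in the same direction, at 1077 to 2817 rpmm in HA kidneys and 579 to 1127 in HY kidneys, with all 4 markers above 0 in every kidney library, and their part was not tested. The pancreas list (3 miRNAs) also stood higher, at 245 to 361 rpmm in HA (median 299.7) and 95.3 to 337 in HY kidneys (median 109), with overlap, and its part was not tested either. Epithelial, endothelial and smooth muscle markers overlapped between the groups. The relative miR-199b-5p rose by 0.68 (limma adjusted p = 0.012), and miR-21a-5p, also known from fibrosis, by 1.37 (8e-05).

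Isochronic aged mice were also set against isochronic young mice (IA against IY). Of 24 tests of a member 6 were called, all higher in aged mice, 3 in kidney and 3 in heart, against 8.13% of 3211 over all miRNAs, 3.43% higher (limma). Among all miRNAs 4.1% were called higher in kidney and 9.69% in heart. Kidney miR-214-3p read 176 to 419 rpmm in IA mice (median 283) and 100.4 to 248 in IY mice (median 136), or 0.86 (SE 0.25, 1.82-fold, limma adjusted p = 0.038). miR-199a-5p and miR-214-5p rose by 0.79 (0.047) and 0.75 (0.039), and miR-199a-3p gave 0.33 (0.27). White blood cell markers lay at 1175 to 2543 rpmm in IA and 634 to 1423 in IY kidneys, and their part was not tested. The muscle list went the other way, at 80.3 to 798 rpmm in IA (median 91.2) and 80.2 to 1079 in IY kidneys (median 834). Its part was not tested either.

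In heart, miR-214-3p read 169 to 365 rpmm in IA mice (median 284) and 124.5 to 279 in IY mice (median 138), or 0.78 (SE 0.20, 1.72-fold, limma adjusted p = 0.013). miR-199a-5p rose by 0.67 (0.026) and miR-214-5p by 0.62 (0.019). Heart miR-199a-3p gave -0.26 (limma adjusted p = 0.31), the opposite sign to its own 5p arm. The muscle list (3 miRNAs) lay at 118662 to 206342 rpmm in IA and 176570 to 226336 rpmm in IY hearts and the white blood cell list at 1018 to 1603 and 823 to 1352 rpmm, and their part was not tested. Among the mesenchymal miRNAs listed beside them, miR-21a-5p (0.67) and miR-100-5p (0.61) rose and miR-143-3p of smooth muscle fell by 0.47.

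These 6 calls were less stable than those between HA and HY. With the pair number as a replicate block 3 were left, all in heart. With sequencing pool as a covariate 1 was left, and against IY mice of 4.5 months alone none was, at 0 of 24 by limma. Leaving out any 1 of 9 kidney libraries, 4 IA (19B, 7B, 9A, 9B) and 5 IY (15A, 15B, 16B, 17A, 17B), ended all 3 kidney calls at once. Taken singly, the miR-199a-5p call ended without any 1 of 15 libraries and those of miR-214-3p and miR-214-5p without any 1 of 10. The miR-199a-5p call was kept under 8 of 14 alternatives. The miR-199a-5p call was lost with the pair block and against IY mice of 4.5 months alone, but kept with pool as a covariate. It was also lost with a pseudocount of 10 rpmm, without the filter, by edgeR without TMM factors and in C57BL/6J mice only. In heart the miR-199a-5p call ended without IY 15B, 16A or 17B or IA 6B or 9B, and that of miR-214-5p without IA 6B or 9B.

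Whether the partner's age moved the members was asked at fixed age. In aged mice (HA against IA) 0 of 24 tests of a member were called by limma, against 0.965% of 3211, with 7 at an unadjusted p under 0.05. On recovered reads edgeR called 3 with its usual scaling factors (TMM) and 0 without them. The 0.965% is of limma calls by adjusted p only. No share over all miRNAs stands beside the count at an unadjusted p or those by edgeR. Kidney miR-214-3p read 213 to 773 rpmm in HA and 176 to 419 in IA mice, 0.68 higher in HA (SE 0.27, limma adjusted p = 0.17). The other 3 kidney members were 0.33 to 0.41 higher. MAT gave the widest differences, 1.23 for miR-199a-3p (SE 0.45) and 1.27 for miR-199a-5p (SE 0.51), both with a limma adjusted p of 0.19. Markers of other cells differed widely between these MAT groups, with medians in HA and IA mice of 159.6 and 9600.1 rpmm for the pancreas list, 1368 and 5546 for the epithelial list, 49209 and 12027 for the smooth muscle list and 4166 and 10939 for the white blood cell list, and their part was not tested. In GAT miR-199a-3p gave 0.58 (SE 0.23, limma adjusted p = 0.14). Heart miR-199a-5p lay lower in HA mice, at 209.9 to 367 rpmm against 208 to 624 in IA mice, or -0.54 (SE 0.21, limma adjusted p = 0.12).

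In young mice (HY against IY) 0 of 24 were called by limma, against 0% of the 3211 tests over all miRNAs. At an unadjusted p under 0.05 there were 2, with no share over all miRNAs beside them, and edgeR called 0. A p that misses the threshold does not show that the groups were alike. Kidney medians were 3470.0 rpmm in HY and 3730.3 in IY mice for miR-199a-3p and 123.5 and 136 for miR-214-3p.

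**Figure D5:**
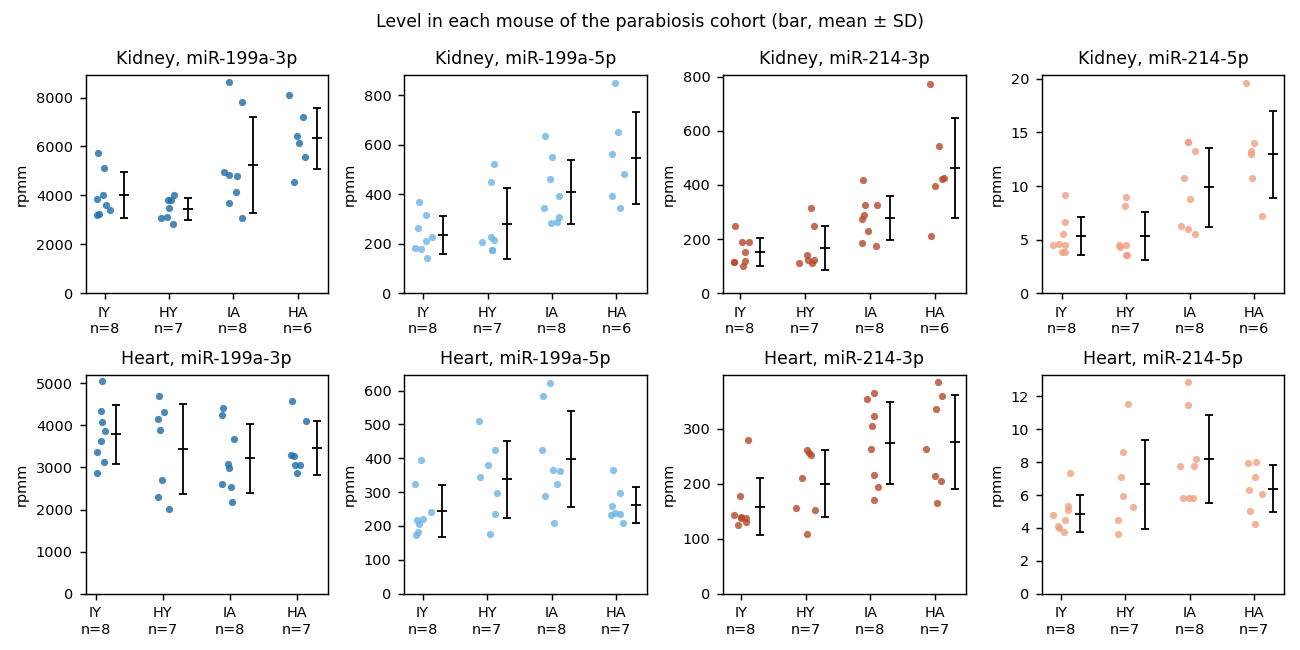
Level of the 4 members in kidney (top) and heart (bottom) of each parabiosis mouse (points, rpmm, axis from 0), with the mean ± SD beside each group. In kidney the median of the HA mice is above that of the HY mice for all 4 members, with no overlap for miR-199a-3p (4559 to 8117 against 2826 to 4014 rpmm).

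The same members can be read across both cohorts. Kidney members were higher in 21-month than in 3-month mice (1.27 to 2.14, none called) and in HA than in HY mice (0.86 to 1.47, 4 called, with strain not separable from age). They were also higher in IA than in IY mice (0.33 to 0.86, 3 called, none with the pair number as a replicate block). Limb muscle went the other way with age in single mice, and among joined mice IA minus IY gave -0.32, -0.52, -0.54 and -0.38 in limb muscle (limma adjusted p from 0.15 to 0.28). Heart gave 3 calls in IA against IY, but none in HA against HY and none at any later age against 3 months. Liver members were called higher at some later ages in single mice, but none was called in a parabiosis comparison by limma. HA and HY shared no libraries with IA and IY, but all 4 groups entered 1 fit per tissue.

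A list of 14 other miRNAs known from mesenchymal cells was followed beside the members, 1 of which, miR-199b-3p, repeats the values of miR-199a-3p. Its counts stand beside the share called over all miRNAs in the same comparison (limma). Of its tests 4 of 83 were called between HA and HY, all higher (9.81% over all miRNAs), and 4 of 83 between IA and IY, 3 of them higher (8.13%). At 21 against 3 months 9 of 191 were called (3.86%), 8 higher, among them miR-145a-3p in small intestine (1.24), and the 1 lower was miR-218-5p in limb muscle (-1.86). Over all later ages 26 of 1556 were higher (1.27%) and 11 lower (1.5%), among them miR-143-3p in MAT at 27 months (-2.68). At 1 against 3 months 6 of 191 were called (1.76%), all lower and in MAT, led by miR-195a-5p (-2.22), miR-21a-5p (-1.91) and miR-22-3p (-1.79). Between the sexes 7 of 219 were called (4.45%), 2 higher and 5 lower in females, among them miR-21a-5p (-0.77) and miR-145a-5p (0.64) in skin. HA against IA called 1 (0.965%), miR-21a-5p in GAT (0.93), and HY against IY called 0 by limma.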

How the data were processed

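Small RNA libraries of both cohorts were analysed from 2 expression tables. As deposited, each RNA has 1 signal value per library, which the authors obtained from single-end reads with the miRMaster pipeline (labels naming mm10) by mapping to miRNA and other noncoding RNA references and scaling to 1e6 mapped reads (rpmm). The authors kept RNAs passing an abundance filter over all libraries. Because an RNA may share reads with another, a library's values can sum to more than that. Sequencing plate and pool came from the deposited annotation. From the aging cohort's values, 2 columns matched no sample's labels with certainty and were not used.

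Reads were recovered as multiples of the smallest value of other RNA classes. Up to 1000 reads, 100% of values of other classes came out whole within 0.05 reads, as did 99.0% of miRNA values for aging and 98.8% for parabiosis. Levels were compared as log2(rpmm + 1), so a fold change understates the change of a low miRNA, for miRNAs with at least 1 rpmm in 10% of the libraries of a tissue (R 4.3.3, limma 3.58.1 with a trended prior, adjusted p under 0.05 by Benjamini-Hochberg within a tissue and contrast). This filter left brain without tests of miR-214-5p. Parabiosis groups shared 1 fit per tissue. Permutation tests used 100000 shuffles. Alternatives were other pseudocounts, filters and scalings, batch covariates, males only, edgeR 4.0.16 quasi-likelihood tests on recovered reads, and leaving out each library in turn. On simulated data limma recovered 63 of 103 2-fold and 97 of 97 4-fold changes planted among 501 liver miRNAs at 21 against 3 months, with 4 false calls among 301 unchanged.

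The pair number of parabiosis mice marks joined mice. Same-numbered libraries correlated in their deviations from the group means by a median of 0.239 over 39 pairs within a tissue (-0.686 to 0.865), with 25 over 0.1. Those were heterochronic pairs. The isochronic groups held both mice of a pair, such as IY 15A and 15B, and the main fits counted them as separate mice. In the aging cohort title numbers do not tie tissues to a mouse, so tissues of 1 mouse may enter tissue comparisons as separate libraries. The p-values measure the spread between libraries.

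The 4 members were always named. Beside them stood miR-199b-3p and miR-199b-5p, the 5 miRNAs most like each member over tissue means, and up to 3 called miRNAs with the smallest adjusted p from a mesenchymal list of 14. The members, lists and markers were chosen with earlier results of these data known. The name of the strain of the HY mice is not reported here.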

Additional observations from a re-analysis of the deposited data

Results flagged for a closer look

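In 5 of 69 groups of a member, tissue and age or parabiosis group, 1 library stood far from the rest by Dixon's test at its 95% limit, which chance alone gives in about 1 of 20 groups. miR-199a-5p read 447.7 rpmm in MAT 3-month replicate 05, where the others lay at 192.4 to 232.5. miR-199a-5p read 458.9 rpmm in small intestine 21-month replicate 56, against 165.7 to 252.9 in the others. In the heart of IY mouse 10A, miR-214-3p read 279.3 rpmm (others 124.5 to 177.4) and miR-214-5p 7.36 rpmm (others 3.78 to 5.33), so both arms stood apart in the same mouse. miR-214-5p read 8.30 rpmm in heart 3-month replicate 02, against 3.08 to 4.41 in the others.

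The change with age differed between tissues for each member by the permutation test of the tissue and age term over 769 libraries. The adjusted p was 0.00265 for miR-199a-3p, 0.00265 for miR-199a-5p, 0.0225 for miR-214-3p and 4e-05 for miR-214-5p. Other miRNAs were not put through this test, so the result is not shown to be particular to the members.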

How the results depend on the processing

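Counts of called members are given as the number reported and then the number under the alternative. The share over all miRNAs under an alternative is not given beside them, so these counts show dependence on processing only. In males only, neighbouring tissues that differed went from 24 to 13, age correlations from 3 to 6, slope tests from 4 to 2, 1 against 3 months from 1 to 0 and 21 against 3 months from 5 to 1. With the summed miRNA reads as the scale, age correlations went to 6, later ages from 14 to 23, 21 months to 8 and HA against IA from 0 to 1. The call at 1 against 3 months then was 1, but higher. With median ratios, age correlations went to 1, 1 month to 0, 21 months to 0 and sex from 4 to 7. With no filter, 1 month gave 0, later ages 9, 21 months 3 and sex 2, and with a mean of at least 10 rpmm age correlations gave 1 and 21 months 2. With an adjusted p in place of the rho limit, age correlations gave 13. For 1 against 3 months a pseudocount of 10 rpmm, set or plate as a covariate, edgeR with or without TMM factors and leaving out libraries closest to another tissue each gave 0. Plate as a covariate gave 22 for later ages. edgeR with TMM factors gave 3 for HA against IA. A ratio beyond 3/2 or 2/3 with an unadjusted p under 0.05 gave 7 for HA against IA, 1 for HY against IY and 7 for HA against HY. For IA against IY the replicate block by pair number gave 3 in place of 6, pool as a covariate 1 (chosen after seeing the data) and IY mice of 4.5 months only 0. The block moved no other count by over 1.5 times. The cause of these changes was not tested.

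Leaving out 1 library at a time gave 0 to 4 calls at 1 against 3 months, 11 to 28 over later ages (28 without SCAT 3-month replicate 43), 3 to 9 at 21 months, 2 to 5 age correlations, 4 to 5 for HA against HY, 3 to 6 for IA against IY, 0 to 2 for HA against IA (2 without GAT HA 1A) and 0 to 0 for HY against IY. At 1 month the count was 0 without MAT 1-month 21 or 3-month 01, 05, 12 or 17, 4 without MAT 1-month 04 or 35 and 3 without kidney 1-month 09. At 21 months it was 3 without limb muscle 21-month 28 or 3-month 15. It was 1 for HA against IA without GAT or kidney HA 20A, and 5 age correlations without limb muscle 1-month 21 or 27-month 53. Over 29 named differences of the members and 1413 alternatives, 1187 kept their side of the threshold, 226 lost the call and 0 reversed. Depth limits miR-214-5p most, at a median of 2 reads in brain. On simulated data for liver HA against IA, limma recovered 78 of 91 planted 2-fold changes, so smaller ones could be missed there.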

Other observations

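The median ratio between the arms of miR-199a was lower in the parabiosis than in the aging cohort in each shared tissue. miR-199a-3p exceeded miR-199a-5p by a median of 15.3-fold in aging cohort livers and 9.51-fold in parabiosis livers, by 19.8-fold and 13.3-fold in heart, and by 22.3-fold and 13.0-fold in GAT. The medians were 18.3-fold and 13.0-fold in MAT, and nearer in kidney (18.9-fold and 15.5-fold) and limb muscle (16.7-fold and 14.6-fold). The cohorts share no group and differ in sexes, ages and joining, so the difference was not tested. The paper also describes an added precipitation of the RNA for the aging cohort.

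BAT had the steepest positive slopes of miR-199a-3p, miR-199a-5p and miR-214-3p, at 1.05, 0.89 and 0.98 on the log2 scale per 12 months. BAT miRNAs as a whole also leaned upward with age, with a median rho of 0.385 and 15.2% above 0.5. miR-199a-3p ranged from 53.3 to 3135 rpmm in BAT (n = 31), with an SD of 1.61 on the log2 scale. Among the BAT members the correlation with age passed by adjusted permutation p for miR-214-3p alone (rho = 0.429), and no BAT value passed the limit of 0.5.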
